A study of Mus musculus with 6 samples.

Results

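The Kruppel-like factors are a family of zinc finger transcription factors, and 10 of them were followed here in colon tumours of mice. The members were every probe set, a group of short probes that reads 1 transcript, annotated to Klf2, Klf3, Klf4, Klf5, Klf6, Klf7, Klf10, Klf11, Klf13 or Klf15 and to no other gene. They came to 28 of the 45101 probe sets, and the genes to 10 of the 18194 named by a probe set with a single symbol. Tumours came from 3 mice with a human IL8 transgene (IL8 tumours, on transgenic arrays 1 to 3) and from 3 wild type control mice, all of the mixed CBA/C57BL/6 strain and all labelled male. IL8 is a human chemokine that draws neutrophils, and the mouse has no direct counterpart of the gene. Total RNA was hybridised to 6 Affymetrix arrays, 1 for each sample, and the comparison asks how expression in the tumour differs with the transgene. The promoter that drives the transgene, the age of the mice, how the tumours arose and whether an array holds 1 tumour or several are not stated in these sources. Differences are therefore judged only against the spread between these 6 samples, which may be technical in part.

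Kruppel-like factors share zinc fingers at the end of the protein that bind GC-rich and CACCC-like DNA, while the rest of the protein differs and decides whether a member activates or represses. In the intestine, Klf5 is known from dividing crypt cells and Klf4 from differentiated surface and goblet cells, where it slows the cell cycle. Klf2 is known from endothelium and resting lymphocytes, Klf6, Klf10 and Klf11 as genes induced early by growth factors and TGF-beta, Klf3 as a repressor that recruits the protein CtBP, and Klf15 as a metabolic regulator induced by glucocorticoids. The genes of these 10 factors lie on 10 different autosomes in the GRCm38.p6 assembly, on chromosomes 1 (Klf7), 4 (Klf4), 5 (Klf3), 6 (Klf15), 7 (Klf13), 8 (Klf2), 12 (Klf11), 13 (Klf6), 14 (Klf5) and 15 (Klf10).

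RefSeq promoter windows of the GRCm38.p6 build, from 250 bases before to 50 bases after a gene's start, were found for 8 of the 10 genes. Those of Klf2 and Klf6 are shown because these genes had similar profiles over the 6 arrays, and those of Klf7 and Klf11 because transgenic array 1 stood apart from all other arrays for both, by the widest gaps among the 9 tested genes. They are written 5′ to 3′ on the gene's own strand, and capitals mark the CACCC core and the GC box GGGCGG, which this family and the related Sp factors bind, on either strand, and the MEF2 consensus.
Klf2: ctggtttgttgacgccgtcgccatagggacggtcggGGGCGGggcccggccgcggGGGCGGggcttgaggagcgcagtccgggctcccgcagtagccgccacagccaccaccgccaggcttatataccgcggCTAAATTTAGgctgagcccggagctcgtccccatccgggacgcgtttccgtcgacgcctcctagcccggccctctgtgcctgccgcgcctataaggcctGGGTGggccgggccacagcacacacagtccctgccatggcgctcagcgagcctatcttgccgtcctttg
Klf6: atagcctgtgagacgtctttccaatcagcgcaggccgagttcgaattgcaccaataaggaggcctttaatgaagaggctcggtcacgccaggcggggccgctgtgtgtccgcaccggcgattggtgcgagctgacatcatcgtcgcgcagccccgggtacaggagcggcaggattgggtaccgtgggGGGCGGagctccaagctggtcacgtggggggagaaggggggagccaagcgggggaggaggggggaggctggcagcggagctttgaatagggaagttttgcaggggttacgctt
Klf7: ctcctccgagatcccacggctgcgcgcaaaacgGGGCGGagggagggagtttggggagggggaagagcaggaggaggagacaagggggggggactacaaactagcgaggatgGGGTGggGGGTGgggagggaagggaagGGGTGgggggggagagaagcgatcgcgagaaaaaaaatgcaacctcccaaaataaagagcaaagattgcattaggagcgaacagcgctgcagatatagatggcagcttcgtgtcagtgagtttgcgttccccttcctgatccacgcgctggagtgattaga
Klf11: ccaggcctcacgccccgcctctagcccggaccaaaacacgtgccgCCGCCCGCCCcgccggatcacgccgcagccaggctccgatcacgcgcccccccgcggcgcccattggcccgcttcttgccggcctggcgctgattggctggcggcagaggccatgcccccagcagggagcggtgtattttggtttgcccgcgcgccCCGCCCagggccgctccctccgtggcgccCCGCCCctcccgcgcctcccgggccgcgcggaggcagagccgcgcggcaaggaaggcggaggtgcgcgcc
The Klf2 window is chr8:72318812-72319111 on the plus strand, that of Klf6 chr13:5861239-5861538 on the plus strand, that of Klf7 chr1:64121340-64121639 on the minus strand and that of Klf11 chr12:24651121-24651420 on the plus strand. GGGCGG or its reverse complement CCGCCC was present in all 8 windows, against 35.7% of the 32851 windows of this length in the table. CACCC or GGGTG was present in 5 of 8, against 57.5%, and no such site overlaps a GGGCGG site in the 4 windows printed. The Klf7 window holds 3 CACCC sites, that of Klf2 holds 1, and those of Klf6 and Klf11 hold none. The cyclic AMP response half-site TGACG or CGTCA was found in 5 of 8 (20.8% of all windows) and the E-box CACGTG in 4 of 8 (7.15%). TATAAA or TTTATA (13.6%) and the CArG box bound by serum response factor (1.63%) were found in none of the 8, and the MEF2 consensus (3.19%) in 1, that of Klf2, where MEF2 is known to act. The windows of these genes are rich in G and C, at 58.3% for Klf7 and 77.7% for Klf11, and the matches describe letters, not bound sites.

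The arrays differed in other ways, whose part in the values below was not tested. The X-inactivation RNA Xist was at 12.89, 12.27 and 12.78 on transgenic arrays 1, 2 and 3, against 2.33, 2.64 and 2.44 on control arrays 1, 2 and 3, and the Y-linked gene Eif2s3y was at 2.53 ± 0.16 against 10.09 ± 0.12 (SD, n = 3 per group), although every animal is labelled male. Genotype and this split cannot be told apart. No probe set is annotated to the human transgene. The 12 colon epithelium markers were all measured, with a mean log2 level of 10.85 to 11.82 on transgenic and 10.71 to 11.77 on control arrays. Transgenic array 2 carried squamous epithelium genes, with Krt5 at 10.27 there and no higher than 2.86 on any other array. Transgenic array 1 had the lowest difference between the 3′ and 5′ control probe sets of Gapdh, 0.71 against 0.87 to 0.96 elsewhere.

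Only probe sets that reached a log2 value of 4 on 3 or more arrays entered the test. Of the 28 member probe sets, 22 passed, from 9 genes, and each of the 22 was at 4 or above on all 6 arrays. The single probe set of Klf15 was at 3.04, 3.50 and 3.61 in transgenic tumours and at 3.47, 3.40 and 3.66 in control tumours, under 4 everywhere, and was not tested. The other 5 untested probe sets, 2 of Klf3 and 1 each of Klf5, Klf6 and Klf13, stayed between 2.67 and 4.27. Each gene is described by its leading probe set, the tested one with the highest mean over all arrays. Levels are log2 values, and probe sets differ in how brightly they read the same amount of RNA, so levels are compared between arrays and not between genes.

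All 9 leading probe sets had a higher mean in the transgenic tumours, and none passed the test. With limma, 0 of the 22 member probe sets had an adjusted p under 0.05, against 0.057% of the 19310 probe sets tested over the whole array, and 1 of 22 had an unadjusted p under 0.05, against 5.5%. Adjusted p of the members ran from 0.806 to 0.979. Xist and Eif2s3y, described above, and the Y-linked genes Kdm5d and Uty were among the probe sets that passed over the whole array. By leading probe set 5 of all 10289 genes passed, and these genes were among the 5. Of the 22, 21 lay higher in transgenic tumours, where 46.8% of all probe sets did. The median log2 difference of the 9 leading probe sets, transgenic minus control, was 0.37, and that of the leading probe sets of all 10289 genes was -0.02. The members share the same 6 arrays and the 22 probe sets read only 9 genes, so these counts are not independent of each other. Members were also chosen with earlier results of these data known. Without transgenic array 1 the median was 0.17, with 7 of 9 higher, and without transgenic array 3 it was 0.70, with 9 of 9 higher.

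**Figure D1:**
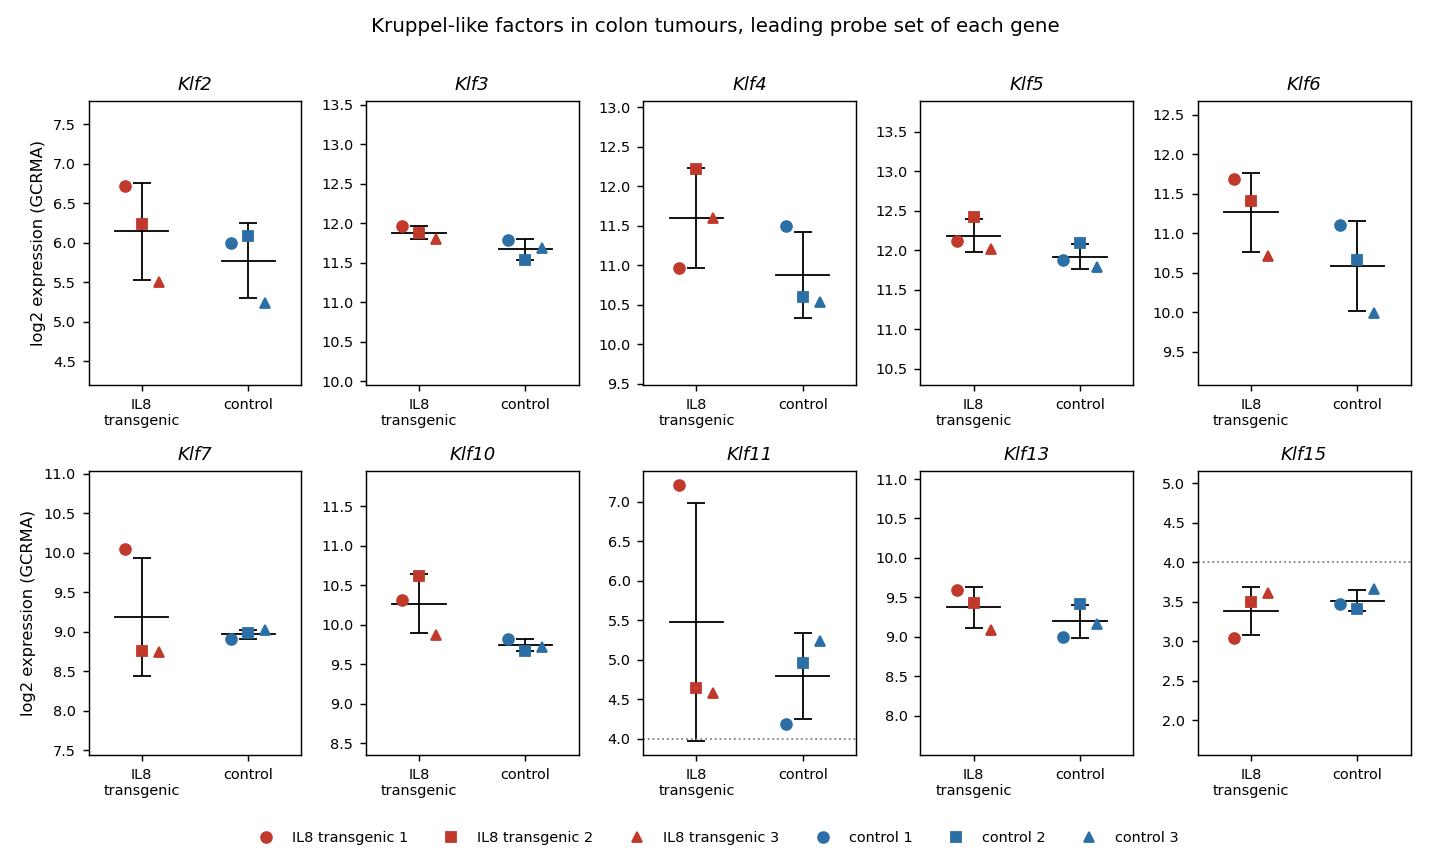
Log2 expression of the leading probe set of each of the 10 genes on 3 transgenic (red) and 3 control (blue) arrays, with marker shape giving the array number, a horizontal bar the mean and whiskers the SD. The dotted line is the level of 4 used in the filter, and axes span at least 3.6 log2 units. Klf7 and Klf11 have 1 high point each, transgenic array 1, while Klf3 and Klf10 have every transgenic point above every control point.

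The arrays did not share the family's difference evenly. Measured from each gene's control mean, the median over the 9 leading probe sets was 0.58, 0.46 and 0.09 on transgenic arrays 1, 2 and 3, against 0.08, 0.08 and -0.03 on control arrays 1, 2 and 3. Transgenic array 1 was the highest of the 6 for Klf2, Klf3, Klf6, Klf7, Klf11 and Klf13, and transgenic array 2 for Klf4, Klf5 and Klf10. By the median, transgenic array 3 lay near the control arrays, though it was above every control array for Klf3, Klf4 and Klf10. Control array 3 was the lowest of all for Klf2, Klf4, Klf5 and Klf6. The within-group SD was larger in the transgenic group for 7 of the 9 leading probe sets (77.8%), as it was for 70.4% of all genes.

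**Figure D2:**
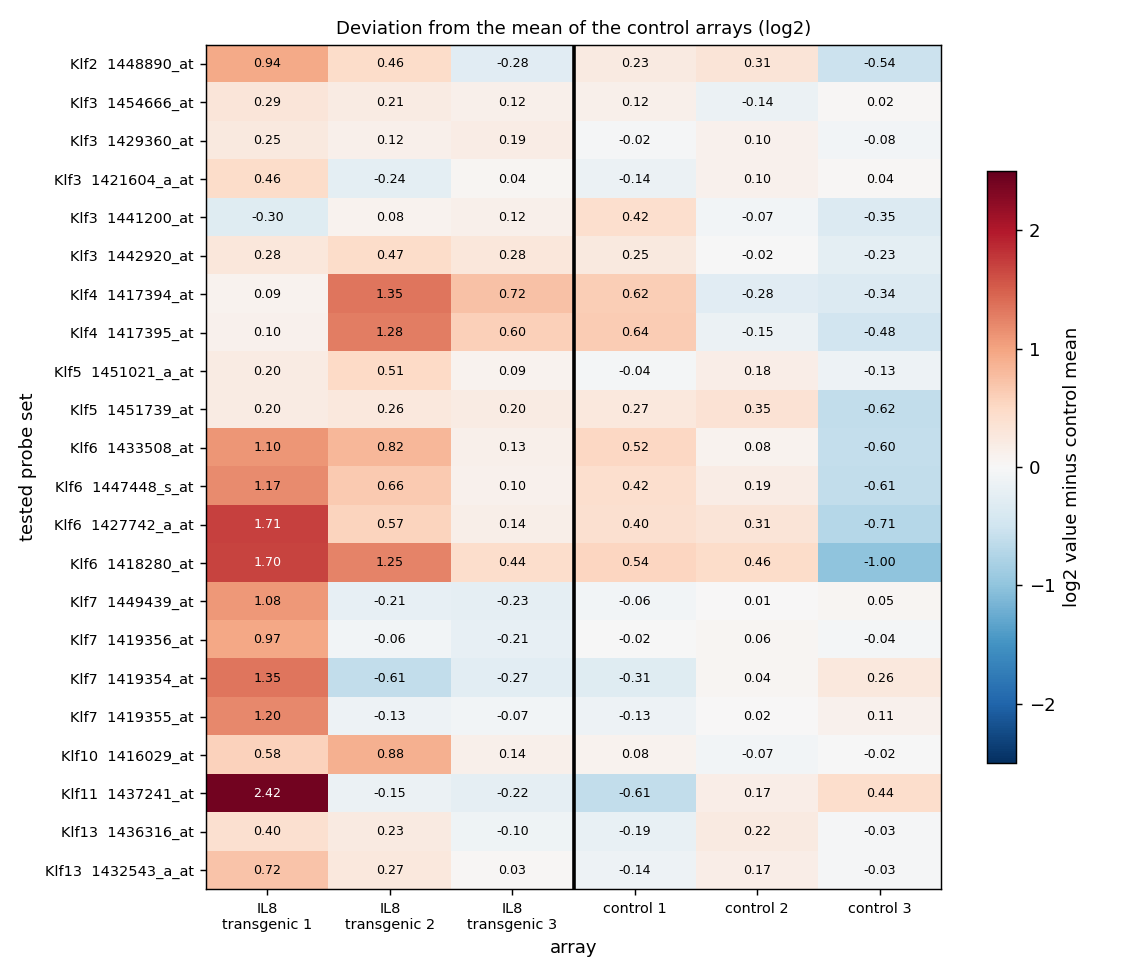
Deviation of each of the 22 tested probe sets from its own control mean, in log2 units, with a row for each probe set and the 3 transgenic arrays left of the 3 control arrays. The probe sets of Klf6 and Klf7 repeat 1 profile within each gene, and Klf11 reaches 2.42 on transgenic array 1.

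Klf4, the factor of differentiated colon epithelium, was at 10.97, 12.22 and 11.60 in IL8 tumours, against 11.50, 10.60 and 10.54 in control tumours. Transgenic arrays 2 and 3 were highest, but control array 1 lay above transgenic array 1, so the groups overlap. The means were 11.60 ± 0.63 and 10.88 ± 0.54 (SD, n = 3 per group), a log2 difference of 0.72 ± 0.40 (SE), or 1.65-fold, with a 95% interval of -0.25 to 1.69 and a limma adjusted p of 0.806. Its second probe set ran the same way, at 9.29, 10.48 and 9.80 in transgenic and 9.83, 9.04 and 8.71 in control tumours. Leaving out transgenic array 2 gave 0.41, and leaving out transgenic array 1 gave 1.04.

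Markers of differentiated epithelium were high on much the same arrays. The 7 goblet cell markers, genes of mucus-secreting cells, had a mean log2 level of 9.03, 12.27 and 12.29 on transgenic arrays 1 to 3, against 11.70, 10.21 and 10.54 on control arrays 1 to 3. The 7 measured absorptive colonocyte markers averaged 6.27, 9.32 and 10.18 on the transgenic arrays, against 9.42, 6.71 and 6.20 on the control arrays. Both lists were high on transgenic arrays 2 and 3 and on control array 1, the 3 arrays on which Klf4 was highest. The 4 tested squamous markers averaged 4.71, 10.06 and 6.18 on the transgenic arrays, against 5.93, 6.47 and 4.69 on the control arrays. These means leave out Krt5, Krt13, Krtdap, Trp63 and Lor, which were high on transgenic array 2 alone and so failed the filter. Ivl, under 4 on every array, failed it too. Klf4 is also known from squamous epithelium. In a bulk tumour sample, fewer cells of a type and less RNA per cell cannot be told apart, and the part of these cells in the Klf4 values was not tested.

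**Figure D3:**
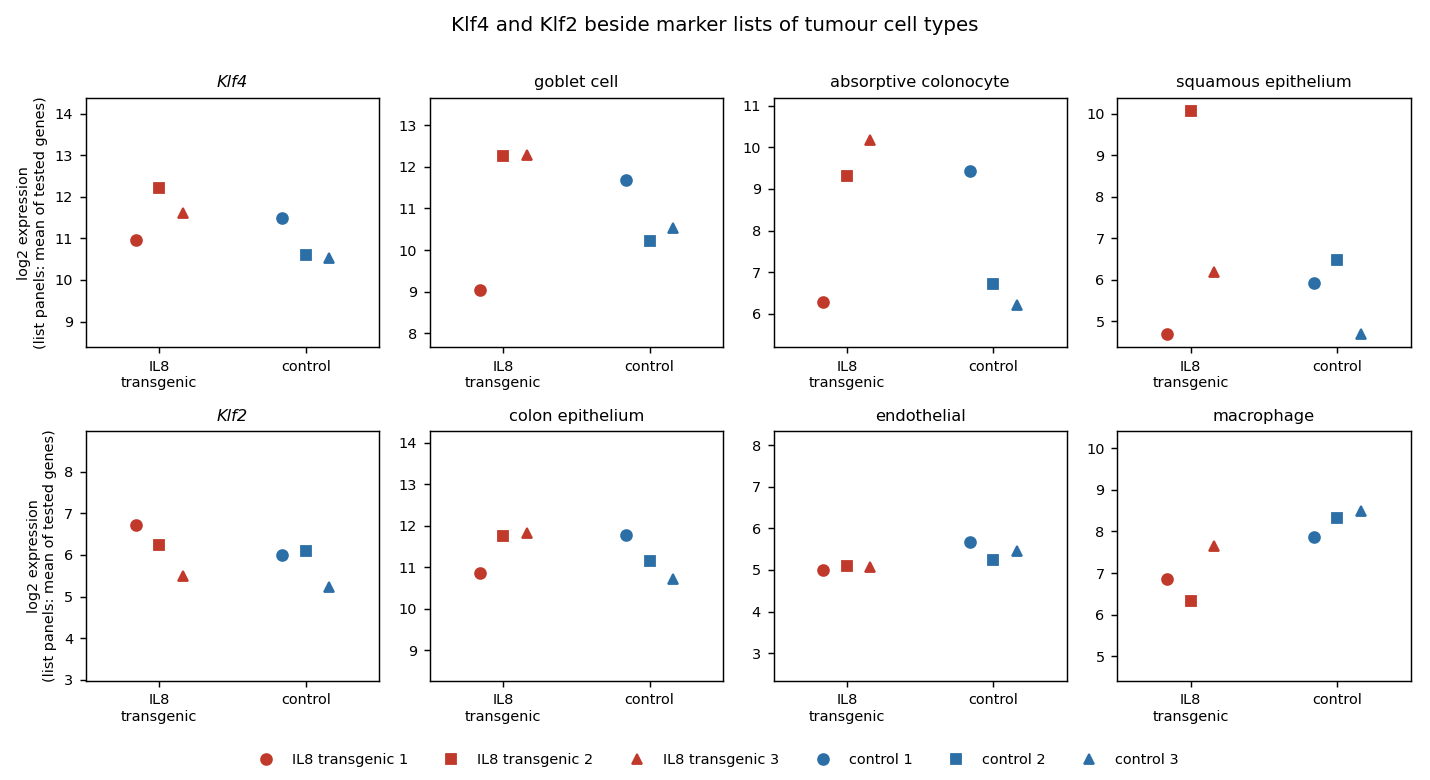
Log2 level of Klf4 and Klf2 on each array beside the mean log2 level of the tested genes of 6 marker lists, transgenic arrays in red and control arrays in blue, each panel spanning at least 6 log2 units. Transgenic arrays 2 and 3 and control array 1 are high for Klf4 and for the goblet cell and absorptive colonocyte lists, while the squamous list stands at 10.06 on transgenic array 2.

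Klf5, which drives proliferation of crypt cells, was at 12.12, 12.42 and 12.01 in IL8 tumours, against 11.87, 12.09 and 11.79 in control tumours. The groups overlap at transgenic array 3 and control array 2. The log2 difference was 0.27 ± 0.18 (SE), or 1.20-fold (limma adjusted p 0.806), and 0.15 without transgenic array 2. A second tested probe set was at 10.53, 10.58 and 10.52 in transgenic and 10.59, 10.68 and 9.70 in control tumours, a difference of 0.22. Control array 3 was the lowest at both probe sets, by a far wider margin at the second.

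Klf6, a growth factor-induced gene known as a tumour suppressor, was at 11.68, 11.41 and 10.71 in IL8 tumours, against 11.11, 10.66 and 9.98 in control tumours. Transgenic arrays 1 and 2 were above all control arrays, and transgenic array 3 lay below control array 1. The means of 11.27 ± 0.50 and 10.59 ± 0.57 (SD, n = 3 per group) gave a log2 difference of 0.68 ± 0.37 (SE), or 1.60-fold, with an interval of -0.21 to 1.58 and a limma adjusted p of 0.806. All 4 tested Klf6 probe sets had transgenic array 1 highest and control array 3 lowest, and they differed by 0.64 to 1.13. The largest of these was at 9.44, 8.99 and 8.19 in transgenic and 8.29, 8.2 and 6.74 in control tumours. Without control array 3 the leading probe set differed by 0.38, and without transgenic array 3 by 0.96.

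Klf10, a repressor first described as an early gene of TGF-beta, was at 10.32, 10.62 and 9.87 in IL8 tumours, against 9.82, 9.67 and 9.72 in control tumours. The groups did not overlap, though transgenic array 3 stood close to control array 1. Its 3 control values spanned a narrow range (SD 0.08, n = 3), while the transgenic values had an SD of 0.37. The log2 difference was 0.53 ± 0.22 (SE), or 1.45-fold, with an interval of 0.01 to 1.06. This was the 1 member probe set with an unadjusted limma p under 0.05, at 0.0483, and its adjusted p was 0.806. The groups did not overlap, with transgenic above, for 4 of the 22 member probe sets, against 4.61% of all tested, and the other 3 were of Klf3.

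Klf11, the closest relative of Klf10, was at 7.22, 4.64 and 4.58 in IL8 tumours, against 4.19, 4.96 and 5.24 in control tumours. Transgenic array 1 stood 1.98 above the next array, and the other 2 transgenic values lay inside the control range. The log2 difference of 0.68 ± 0.75 (SE, limma adjusted p 0.848) became -0.19 without that array. It was 0.38 with control array 1 left out, and 1.10 or 1.13 with transgenic array 2 or 3 left out. Klf7, a factor known from neurons and fat cells, had the same shape. It was at 10.05, 8.76 and 8.74 in IL8 tumours, against 8.91, 8.98 and 9.02 in control tumours. Its other 3 probe sets were also highest on transgenic array 1, by 0.97 to 1.35 over the control mean, and the leading probe set's difference of 0.21 ± 0.37 (SE) was -0.22 without that array and 0.43 with transgenic array 2 or 3 left out. The 3 control values of Klf7 had an SD of 0.06 (n = 3).

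Transgenic array 1 also had the lowest mean of the fibroblast markers. The 8 fibroblast markers averaged 9.13 there, against 10.03 to 10.46 on the other transgenic and 10.48 to 10.57 on the control arrays. Lum was at 3.28 there, against 5.71 or more on the other arrays. Pdgfra was lowest on transgenic array 2, and Dcn and Pdgfrb on transgenic array 3. The 8 macrophage markers averaged 6.86, 6.32 and 7.66 on the transgenic arrays, against 7.86, 8.31 and 8.50 on the control arrays. The 5 tested smooth muscle markers averaged 6.71, 10.61 and 9.54 on the transgenic arrays, against 8.204, 7.56 and 7.27 on the control arrays, and the 4 tested neutrophil markers 9.39, 9.47 and 9.04, against 8.63, 9.14 and 8.67. Of those 4 neutrophil markers, 3 lay higher. S100a8 (0.78) and S100a9 (1.02) had every transgenic array above every control array, while Ltf overlapped. Mmp9 lay lower (-1.95), with every transgenic array below every control array. The neutrophil receptor genes Cxcr2 and Csf3r did not pass the filter. The part of these differences, and of the Gapdh control values above, in the Klf7 and Klf11 levels was not tested.

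Klf2, known for its flow-induced expression in endothelium, was at 6.71, 6.23 and 5.50 in IL8 tumours, against 6.00, 6.09 and 5.23 in control tumours. The groups overlap, with array 3 the lowest in each group. The log2 difference was 0.37 ± 0.38 (SE), or 1.30-fold, with an interval of -0.54 to 1.29 (limma adjusted p 0.836), and leaving out transgenic array 1 made it 0.09, leaving out control array 3 made it 0.10, and leaving out transgenic array 3 made it 0.70. Of 10 endothelial markers 7 were tested, with a mean log2 level of 5.004 to 5.10 on transgenic and 5.24 to 5.66 on control arrays. Of the 7, Sox18 was the 1 whose groups did not overlap (a difference of -1.92), and Emcn was the 1 that lay higher (0.51). Without Sox18 the mean of the other 6 was 5.11, 5.03 and 4.97 on the transgenic arrays, against 5.45, 4.88 and 5.21 on the control arrays, and the groups overlapped. Of the 7 lymphocyte markers on the array, including Cd3e and Cd79a, 0 passed the filter, with values of at most 4.57 on transgenic and 4.03 on control arrays.

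Klf3, the repressor that recruits CtBP, was at 11.97, 11.88 and 11.80 in IL8 tumours, against 11.79, 11.53 and 11.69 in control tumours. Every transgenic array lay above every control array, by the small margin between 11.80 and 11.79. The log2 difference was 0.21 ± 0.15 (SE), or 1.16-fold, with an interval of -0.15 to 0.56 (limma adjusted p 0.806), and 0.14 without control array 2. Of 5 tested Klf3 probe sets, 3 had every transgenic array above every control array, against 4.61% of all tested. Beside the leading one the margins were also small, between 9.43 and 9.42 and between 4.53 and 4.50. The last of these probe sets read near the filter level of 4. The 2 Klf3 probe sets that overlapped differed by 0.08 and -0.03. The one at -0.03 was the 1 member probe set that lay lower in transgenic tumours. Klf13, a widely expressed factor also known from lymphocytes, was at 9.60, 9.43 and 9.09 in IL8 tumours, against 9.002, 9.42 and 9.17 in control tumours. Its difference was 0.18 ± 0.20 (SE) at the leading and 0.34 at the second probe set, with overlapping groups at both. The leading value was 0.065 with transgenic array 1 left out, 0.079 with control array 1 left out, 0.29 with control array 2 left out and 0.32 with transgenic array 3 left out.

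**Figure D4:**
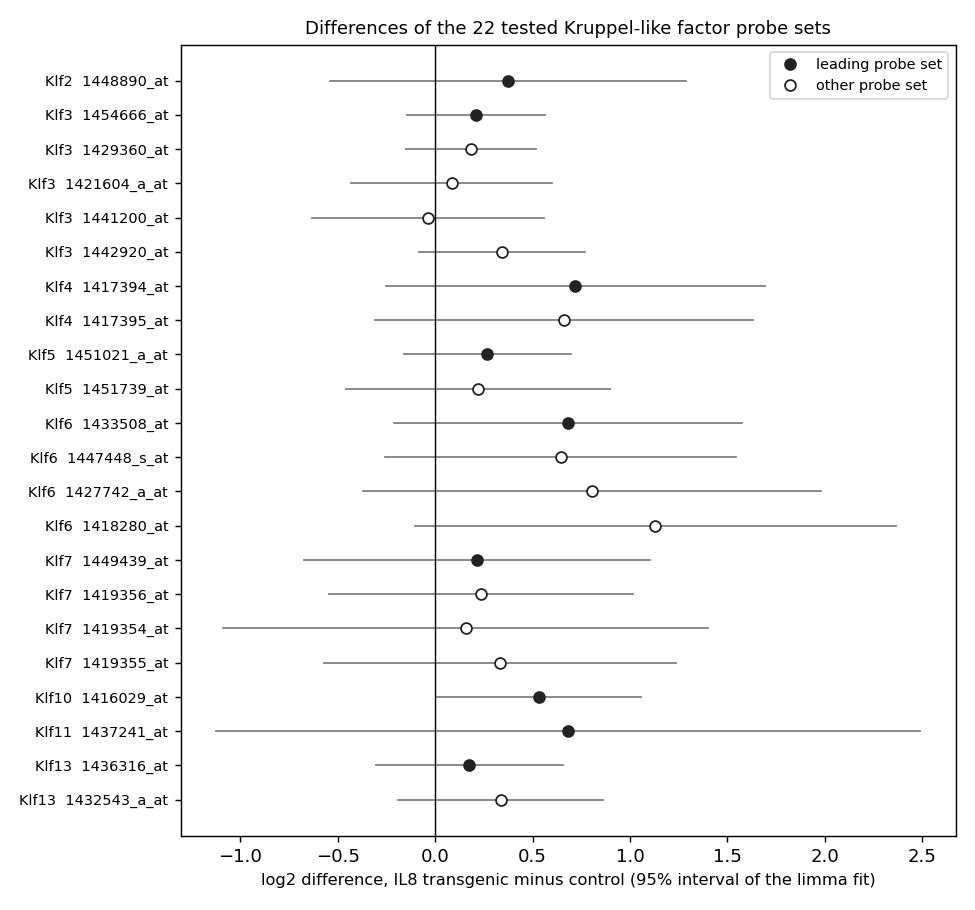
Log2 difference, transgenic minus control, of the 22 tested probe sets with the 95% interval of the limma fit; filled circles are leading probe sets and open circles other probe sets of the same gene. The interval of Klf10 begins at 0.01, and those of the other 21 probe sets include 0.

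Profiles over the 6 arrays were compared after centring each gene on its own mean, by the root mean square difference in log2 units, as a description over 6 arrays that share their RNA samples. The closest pair of members was Klf5 and Klf13, at 0.17, and among those with larger spreads Klf2 and Klf6 were close, at 0.23, while Klf4 and Klf11 were the farthest pair, at 1.35. The leading probe sets of Klf11, Klf4, Klf6 and Klf2 had the largest SD over the arrays, at 1.08, 0.66, 0.61 and 0.53. Of 10280 other genes, the closest to Klf11 was Dgke, a diacylglycerol kinase gene, at 0.08, followed by the protease gene Adamts1 at 0.26 and the decoy receptor gene Il1r2 at 0.27. Dgke was at 6.35, 3.81 and 3.87 in transgenic and 3.43, 4.01 and 4.33 in control tumours, again with only transgenic array 1 high. It lay under the filter level of 4 on transgenic arrays 2 and 3 and control array 1, so this likeness rests largely on readings near background. Closest to Klf4 were Ahcyl2 (0.09), Pgap4 (0.10) and Slc35a1, the transporter of activated sialic acid (0.10). Closest to Klf6 were the annexin gene Anxa3 (0.11), 9530082P21Rik (0.12) and the arrestin-like gene Arrdc4 (0.13), and closest to Klf2 were Tnni2 (0.08), Myof (0.09) and the guanine deaminase gene Gda (0.09). The median over all genes was 1.02 for Klf11, 0.66 for Klf4, 0.63 for Klf6 and 0.56 for Klf2.

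Genes around the family, read from lists of relatives, partners and described targets, also gave no call, with 0 members of any of the 8 lists passing limma. At an unadjusted p under 0.05 there was 1 gene in each of the lists for Klf4, TGF-beta and upstream regulators, 5 in the glucocorticoid list, 4 higher and 1 lower, and 0 in the other 4, where 5.82% of all genes reached it. Of 7 tested relatives from the KLF and Sp families, 3 were higher and 4 lower, with a median difference of -0.25. Klf9, a glucocorticoid-induced member, was at 12.78, 12.21 and 11.98 in IL8 tumours, against 12.03, 12.13 and 11.49 in control tumours, which makes a difference of 0.43. The repressor gene Klf12 was at 7.40, 6.26 and 8.13 in IL8 tumours, against 8.04, 8.56 and 8.12 in control tumours, which makes a difference of -0.98 with transgenic array 2 lowest. Klf16 differed by -0.25, with every transgenic array below every control array, and Sp4 by -0.61. Of 15 tested co-regulators and ubiquitin ligases, 6 were higher and 9 lower, and the 4 of smallest p were the ligase gene Vhl (-0.33), the deacetylase genes Hdac2 (-0.35) and Hdac1 (-0.30) and the co-repressor gene Ctbp2 (0.27).

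Genes described downstream of Klf2, Klf4 and Klf5 did not lie on one side. The lists do not separate genes that a factor induces from those that it represses, so mixed directions do not speak to its activity. Of 6 tested endothelial genes described under Klf2, 2 were higher and 4 lower. The endothelin gene Edn1, which Klf2 is known to repress, was at 7.70, 6.77 and 5.62 in IL8 tumours, against 5.42, 5.80 and 5.16 in control tumours. The thrombomodulin gene Thbd, which Klf2 is known to induce, was at 5.99, 8.27 and 8.78 in IL8 tumours, against 9.004, 8.83 and 8.84 in control tumours. For Thbd every transgenic array lay below every control array, while Edn1 overlapped. Plvap differed by -0.53 and Tek by -0.27.

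Of 9 tested genes described under Klf4, not all of them differentiation genes, 5 were higher and 4 lower. The squamous envelope gene Sprr1a was at 8.59, 10.19 and 6.41 in IL8 tumours, against 6.55, 5.15 and 5.51 in control tumours, which makes a difference of 2.66 (limma adjusted p 0.806). Krt19 differed by 0.21, Lama3 by 0.34 and the cyclin gene Ccnd1 by -0.29, and the enterocyte phosphatase gene Alpi stayed at 2.52 or less on every array. Of 8 tested genes described under Klf5, 3 were higher and 5 lower, among them the growth factor binding protein gene Fgfbp1 (1.50, with transgenic array 2 at 10.73), the receptor gene Egfr (0.38), Lamc1 (-0.31) and Ccnd1 (-0.29).

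Around the TGF-beta-induced members, 3 of 9 tested pathway genes were higher and 6 lower. The TGF-beta target Ccn2 was at 13.24, 11.16 and 10.69 in IL8 tumours, against 10.61, 10.43 and 10.15 in control tumours, with no overlap. The inhibitory gene Smad7 was at 7.88, 7.27 and 8.03 in IL8 tumours, against 8.24, 8.45 and 8.21 in control tumours, also with no overlap and on the other side. Tgfb2 differed by -0.38 and the co-receptor gene Eng by -0.31. Of 12 upstream regulators of early KLF expression, 9 were higher and 3 lower. Mef2d, a factor of the family that binds the Klf2 promoter, was at 8.22, 7.95 and 7.44 in IL8 tumours, against 7.21, 7.35 and 6.97 in control tumours, with no overlap and a difference of 0.69 (limma adjusted p 0.806). Fos differed by 0.69, Mef2c by -0.49 and Apc by 0.24.

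The list beside Klf15 holds glucocorticoid-induced genes, the glucocorticoid receptor gene Nr3c1 and described Klf15 targets. Of its 9 tested genes, 8 lay higher and 5 had every transgenic array above every control array, with a median difference of 0.74. Over all 10289 genes, 46.2% lay higher and 4.77% had every transgenic array above every control array. Klf15 itself stayed under 4. Fkbp5 differed by 1.91, Sgk1 by 1.49, Tsc22d3 by 1.15 and the clock gene Per1 by 1.11. The proline dehydrogenase gene Prodh, a described Klf15 target and the 1 listed gene that lay lower, was at 6.73, 6.29 and 7.02 in IL8 tumours, against 6.83, 7.95 and 8.16 in control tumours, which makes a difference of -0.97. The limma adjusted p of these 5 genes ran from 0.531 to 0.806. Fkbp5 and Sgk1 were known from earlier results of these data to lie higher when the list was drawn up. Both are among the 5 with no overlap, so the counts are not independent of that choice. The branched-chain amino acid gene Bcat2, a described Klf15 target, did not pass the filter.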

How the data were processed

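The deposited values are log2 expression values computed by the authors with GCRMA (background correction, normalization and summary of the probes of a set), according to the submitters' processing notes. Its version and the genome build are not stated there, and the log2 scale was read from the values. They were used as deposited; array medians were 3.31 to 3.36. Symbols came from the platform annotation, and all 28 member probe sets matched a RefSeq gene of the same symbol. Testing required a log2 value of at least 4 on at least 3 arrays, without the 64 AFFX controls. Titles and the genotype label set the groups; the source label conflicts, because it adds the word control for transgenic samples too. All 19310 probe sets were fitted with limma 3.58.1 in R 4.3.3 (transgenic minus control) with Benjamini-Hochberg adjustment at 0.05. The procedure was tested on simulated data drawn with the control spread in both groups, so that test does not cover the larger transgenic spread of most genes. Precision is limited by having 3 arrays per group.

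Named were all members, up to 4 genes of smallest unadjusted p from each of 8 pathway lists, and the 3 genes of closest profile for the 4 members of largest SD; other genes, and the MEF2 consensus, were picked after values or sequences had been seen. Members and lists were chosen with earlier results of these data known. Alternatives were no filter, a filter at 6, quantile normalization, median centring, a trended and robust prior variance, array weights, values under 4 raised to 4, a replicate block, a threshold of 0.1 on the adjusted p, other probe set choices and leaving out each array.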

Additional observations from a re-analysis of the deposited data

How the results depend on the processing

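The count of member probe sets passing limma was 0 under all 15 alternatives, and the smallest adjusted p of any member in them was 0.316, for Klf10 without transgenic array 3. Over the whole array 11 probe sets passed, and between 8 and 12 under the alternatives. The median difference of the leading probe sets, 0.37, ran from 0.17 to 0.70 when 1 array was left out. Of the 9 gene differences, those of Klf3, Klf4, Klf5, Klf6 and Klf10 kept their sign in every alternative run. With array quality weights Klf2 became -0.12, Klf7 -0.043 and Klf13 -0.027. With 1 array left out Klf7 ran from -0.22 (without transgenic array 1) to 0.43 and Klf11 from -0.19 (likewise) to 1.13. The cause was not tested. Klf11 did not pass the filter at 6 and has no value there. With the replicate number as a block, 8 probe sets passed over the whole array and 0 members did. The titles do not say whether equal numbers pair the samples. Deviations of same-numbered arrays correlated at -0.27, -0.28 and -0.05. Deviations centred within groups of 3 arrays constrain each other, so these values cannot settle whether samples were paired. Signal near background limits Klf15 and Klf11.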

Other observations

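The Klf9 and Klf12 transcripts, relatives of the 10 factors, were read by several tested probe sets each. The 3 tested probe sets of Klf12 were all lowest on transgenic array 2, at 6.26, 5.51 and 2.75, and the Wnt-induced family member Sp5 was at 9.91, 4.05 and 8.93 in IL8 tumours, against 9.22, 9.53 and 9.79 in control tumours. All 5 tested probe sets of Klf9 were highest on transgenic array 1, and 2 of them had every transgenic array above every control array, against 4.61% of all tested. The leading Klf9 probe set was not 1 of these 2. Probe sets of 1 gene share their arrays and are not independent. These genes were picked after their values had been seen.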
